A study of Mus musculus with 9 samples.

Results

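Serine and glycine synthesis, mitochondrial folate metabolism and glycine transport are represented here by 10 genes, and they were examined in mouse primary myoblasts, the muscle precursor cells that fuse into fibres. They were the rows of the deposited expression table whose symbol was Phgdh, Psat1, Psph, Shmt1, Shmt2, Mthfd1, Mthfd2, Mthfd1l, Aldh1l2 or Slc6a9. All 10 were found, once each, among 53715 gene IDs. The cells came from the C57BL/10ScSn-Dmdmdx/J strain, whose dystrophin gene is mutated, and all were harvested at passage 1. Of the 9 RNA libraries, 3 came from cells at 0.2 mM glycine and 6 from cells at 0.8 mM. The comparison asks how expression differs between the amino acid's lower and higher supply. All cells carried the dystrophin mutation, and no cells of another strain or without added glycine were analysed here.

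Serine is made from 3-phosphoglycerate, an intermediate of glycolysis, by the enzymes that Phgdh, Psat1 and Psph encode, acting in that order. Serine hydroxymethyltransferase then splits serine into glycine and a one-carbon unit carried by folate, in mitochondria by the product of Shmt2 and in the cytosol by that of Shmt1. The mitochondrial enzymes encoded by Mthfd2, Mthfd1l and Aldh1l2 oxidise that unit to formate or carbon dioxide, Mthfd1 encodes the cytosolic enzyme that takes up formate, and Slc6a9 encodes GLYT1, a plasma membrane glycine transporter. The transcription factor ATF4, which is translated when amino acids are scarce, is known to raise expression of many of these genes.

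The 5 members with the highest levels of RNA, Phgdh, Psat1, Psph, Shmt2 and Mthfd2, were all lower at 0.8 mM glycine. On the means the difference ran from 1.6-fold for Psat1 to 2.98-fold for Mthfd2. The sequence just before the start site is shown for each of these 5. The 150 bases upstream are given 5′ to 3′ on the gene's strand, from RefSeq on GRCm38.p6, with each CCAAT box, a common promoter element, in capitals on either strand (CCAAT or ATTGG). They lie at chr3:98339970-98340119 (Phgdh, minus strand), chr19:15925060-15925209 (Psat1, 1 of its 2 listed start sites, minus), chr5:129787254-129787403 (Psph, minus), chr10:127522445-127522594 (Shmt2, minus) and chr6:83317605-83317754 (Mthfd2, minus).
Phgdh: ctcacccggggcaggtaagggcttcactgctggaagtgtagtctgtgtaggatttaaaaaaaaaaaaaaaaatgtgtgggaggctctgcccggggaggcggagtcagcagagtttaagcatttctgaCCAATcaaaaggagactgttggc
Psat1: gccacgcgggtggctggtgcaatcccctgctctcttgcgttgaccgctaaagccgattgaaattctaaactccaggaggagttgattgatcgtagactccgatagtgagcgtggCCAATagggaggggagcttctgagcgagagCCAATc
Psph: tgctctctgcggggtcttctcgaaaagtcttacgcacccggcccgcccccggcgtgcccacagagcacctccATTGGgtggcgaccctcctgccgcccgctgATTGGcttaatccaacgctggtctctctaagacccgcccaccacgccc
Shmt2: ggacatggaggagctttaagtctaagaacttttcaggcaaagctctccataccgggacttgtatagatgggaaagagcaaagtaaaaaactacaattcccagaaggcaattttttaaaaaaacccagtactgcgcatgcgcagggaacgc
Mthfd2: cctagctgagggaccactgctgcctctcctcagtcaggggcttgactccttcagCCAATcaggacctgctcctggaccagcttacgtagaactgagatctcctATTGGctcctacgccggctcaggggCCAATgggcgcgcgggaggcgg

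Windows of 300 bases, from 250 before the start site to 50 after it, were listed for 9 of the 10 genes, in 12 windows, with Aldh1l2 the gene without one. The core of the C/EBP-ATF response element, the site class that ATF4 binds (TGATGNAA, both strands), was in 0 of the 12 windows and in 3.97% of all 32851 windows. The E-box CACGTG, bound by MYC, was also in 0 of 12, against 7.15% of all windows. The antioxidant response element core TGACNNNGC, bound by NRF2, was in 4 of the 12 windows, of Phgdh, Psph and Slc6a9, and in 12.4% of all windows. CCAAT was in 6 of the 12 windows, against 37.4% of all windows, with 3 copies in the Mthfd2 stretch above and 0 in that of Shmt2. The 150 bases before the other listed start site of Psat1, not shown, also held 0. GGGCGG, the GC box, was also in 6 of the 12, against 35.7% of all windows. These matches describe letters in short windows, and binding was not measured.

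Values are TPM, a transcript abundance scaled by gene length and to a common sum per library, so levels can be compared between genes. Such values hold no read numbers, and the depth is unknown. Genes were tested with limma on log2(TPM + 1) if 3 or more libraries reached 1 TPM, a filter that left 10049 genes, and "rose" and "fell" mean a Benjamini-Hochberg adjusted p under 0.05 over all of them, from 0.2 to 0.8 mM. On that scale the fold changes of low genes come out too small. Nothing in the labels ties libraries to separate cultures or animals, and p-values then reflect only the spread of these libraries, possibly a technical one. Library names carry one series number per glycine level, so a batch following it and glycine cannot be told apart.

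Genes at 1 TPM or more numbered 8979 to 9243 per library at 0.2 mM and 9321 to 9457 at 0.8 mM, and ribosomal RNA genes held 20.05% to 23.4% and 17.5% to 21.2% of TPM. Myoblast markers were present in every library, with a summed 398 to 465 TPM for the 7 genes at 0.2 mM and 891 to 1102 TPM at 0.8 mM. The largest parts of this sum were Myog, at 247 ± 16.9 and 523 ± 41.2 TPM, and Des, at 104 ± 12.8 and 356 ± 30.5 TPM. Of the 7, 6 rose, where 16.7% of all genes tested rose and 9.81% fell. Pax7, the other, was at 0.712 ± 0.176 and 1.20 ± 0.312 TPM. The 10 macrophage and leukocyte markers were also all above 0 in every library, with summed levels of 1861 to 2030 TPM and 2056 to 2501 TPM. Of these 4 rose and 1, Cd68, fell, from 182 ± 13.6 to 57.6 ± 2.38 TPM. The largest parts of the sum were Fcer1g, at 949 ± 39.2 and 888 ± 36.3 TPM, and Lyz2, at 588 ± 30.6 and 1013 ± 153 TPM. The 6 fibroblast markers summed to 1861 to 2245 TPM and 1638 to 2161 TPM. Most of this sum was Dcn, at 1878 ± 184 and 1689 ± 209 TPM, which did not pass. Pdgfra, Col1a1, Col1a2 and Lum, 4 of the 6, rose and 0 fell, so the sum does not show their change. The 4 endothelial markers summed to 1.82 to 2.10 TPM and 3.99 to 5.70 TPM, with 2 that rose. RNA of markers of several cell types was thus present, and its part in the changes below was not tested. Fewer cells of a type and less RNA per cell cannot be told apart in bulk samples.

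At 0.8 mM glycine, all 3 serine synthesis genes, Shmt2 and Mthfd2 of mitochondrial folate metabolism, and the transporter gene Slc6a9 were lower than at 0.2 mM. Of the 10 members, 0 rose, 6 fell, 3 did not pass (Mthfd1, Mthfd1l and Aldh1l2) and 1, Shmt1, was under the filter. Among all genes tested, 9.81% fell and 16.7% rose, 26.6% in either direction. Calls were more frequent among higher genes. With the filter at a mean of 5 TPM instead, 768 of 4470 genes fell and 1236 rose. The members tested had a median log2 fold change of -0.67, beside 0.06 for all genes tested. The values of the groups did not overlap, with 0.8 mM lower, for the same 6 members, as for 10.6% of all genes tested, while 17.6% lay higher at 0.8 mM without overlap. Summed over the 10 members, RNA was 241 to 312 TPM in the libraries at 0.2 mM and 117 to 133 TPM in those at 0.8 mM.

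**Figure D1:**
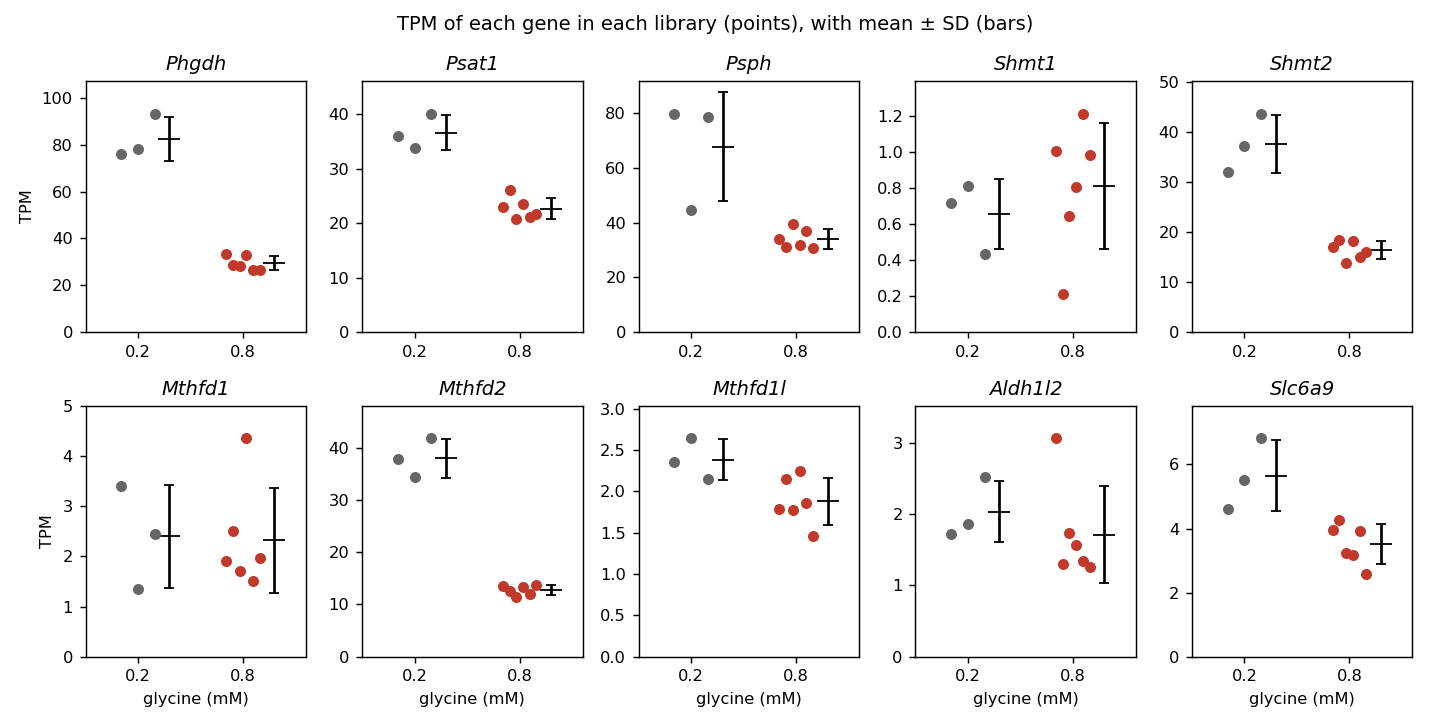
TPM (vertical axis, from 0) of each of the 10 genes per library, grey for 0.2 mM (n = 3) and red for 0.8 mM glycine (n = 6), with mean ± SD as black bars. The groups do not overlap for Phgdh, Psat1, Psph, Shmt2, Mthfd2 and Slc6a9, and overlap for Shmt1, Mthfd1, Mthfd1l and Aldh1l2.

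Phgdh encodes phosphoglycerate dehydrogenase, which commits 3-phosphoglycerate to serine, and lies on chromosome 3 from 98313170 to 98339990 of GRCm38 on the minus strand. It stood at 76.1, 78.3 and 93.2 TPM in the libraries at 0.2 mM and at 26.7 (lowest), 28.4 (median) and 33.2 TPM (highest) at 0.8 mM. Every library at 0.8 mM was below every one at 0.2 mM, by 2.81-fold on the means (82.5 ± 9.30 and 29.4 ± 2.94 TPM). The log2 fold change was -1.46 ± 0.10 (SE, limma adjusted p = 1.60e-06), and 0.687% of all genes tested had a lower one. Phgdh has many processed pseudogenes, and reads shared with such copies can be assigned to either. Transcripts of 22 other genes matched Phgdh over at least 200 bases at 90.4% to 98.75% identity. Of the 20 of them in the table, 2 were above 0 in any library, at no more than 0.122 TPM.

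Psat1 encodes phosphoserine aminotransferase, the next enzyme of the pathway (chromosome 19, 15904678 to 15947337, minus strand). It was at 36.1, 33.8 and 40.1 TPM at 0.2 mM and between 20.7 and 26.04 TPM (median 22.4) at 0.8 mM, without overlap. The means were 36.6 ± 3.21 and 22.7 ± 1.96 TPM, 1.62-fold lower, and the log2 fold change was -0.67 ± 0.09 (limma adjusted p = 0.000285, SE after ±). Its spread was among the smallest of the members, with a coefficient of variation of 8.75% at 0.2 mM and 8.66% at 0.8 mM.

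Psph encodes phosphoserine phosphatase, which releases free serine (chromosome 5, 129765558 to 129787449, minus strand). It was at 79.7 and 78.6 TPM in replicates 1 and 3 at 0.2 mM but at 44.8 TPM in replicate 2, and between 30.8 and 39.5 TPM (median 33.0) at 0.8 mM. Replicate 2 at 0.2 mM was thus nearer to the 0.8 mM libraries than to the other two of its group, yet above all 6. The means were 67.7 ± 19.9 and 34.0 ± 3.49 TPM, a 1.99-fold difference, and on the log2 scale the change was -0.93 ± 0.17 (SE, limma adjusted p = 0.00191). Psph shares 452 exonic bases, 10.4% of its exon length, with Cct6a on the opposite strand, a chaperonin subunit gene at 36.4 ± 1.75 and 32.4 ± 4.64 TPM. Whether strand was used in counting is not given in the sources used here, and without it such reads cannot be told apart.

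**Figure D2:**
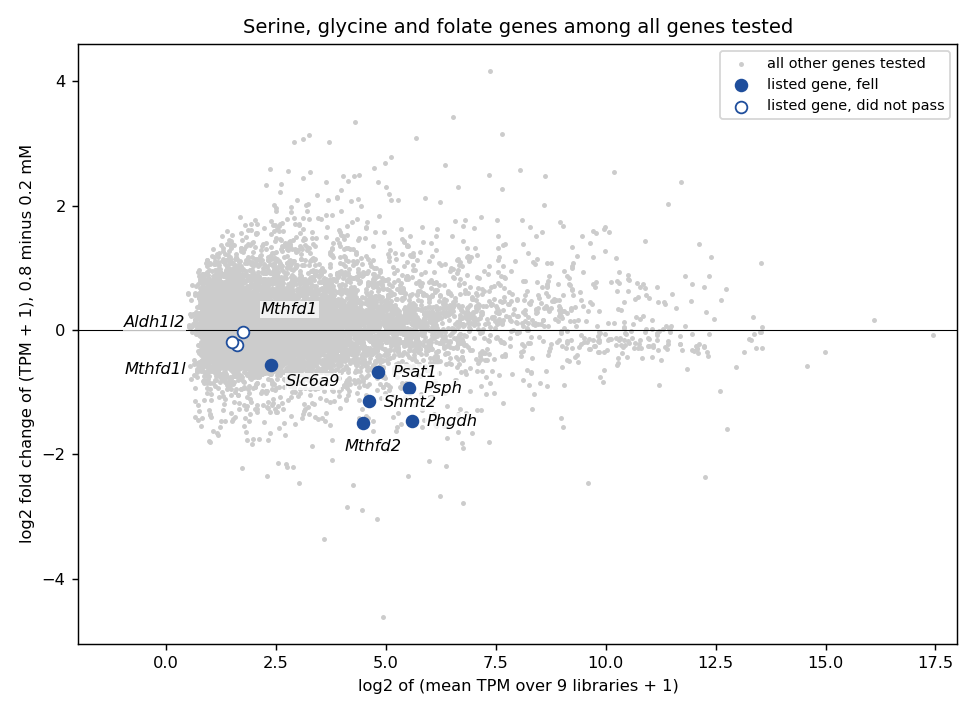
Each point is 1 of the 10049 genes tested, with log2 of (mean TPM over the 9 libraries + 1) on the horizontal axis and the log2 fold change, 0.8 minus 0.2 mM, on the vertical axis. The 6 listed genes that fell are filled blue, from Mthfd2 at -1.50 to Slc6a9 at -0.55, and the 3 that did not pass are open circles near the left edge, between -0.24 and -0.03.

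The mitochondrial serine hydroxymethyltransferase gene Shmt2 (chromosome 10, 127517123 to 127522444, minus strand) was at 32.0, 37.2 and 43.7 TPM at 0.2 mM. At 0.8 mM it ranged from 13.9 to 18.4 TPM (median 16.4), with no overlap. It fell 2.29-fold, from 37.6 ± 5.85 to 16.4 ± 1.82 TPM (log2 fold change -1.15 ± 0.12 SE, limma adjusted p = 3.87e-05). Of its exonic bases 32, or 1.03%, are shared with Ndufa4l2 on the opposite strand, which stood at 26.3 ± 3.06 and 134 ± 12.4 TPM. The cytosolic counterpart Shmt1 (chromosome 11, 60788104 to 60811718, minus strand) was at 0.713, 0.810 and 0.435 TPM at 0.2 mM and from 0.209 to 1.21 TPM (median 0.893) at 0.8 mM. Its groups overlapped, and with no filter on low values its log2 fold change was 0.11 ± 0.20 (SE, limma adjusted p = 0.773). Shmt1 shares 184 exonic bases, 4.74% of its exon length, with Smcr8 on the opposite strand. Smcr8 was above Shmt1 on the means, at 1.85 ± 0.210 and 1.13 ± 0.300 TPM.

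Mthfd2 encodes the mitochondrial methylenetetrahydrofolate dehydrogenase and cyclohydrolase of growing cells (chromosome 6, 83305691 to 83325908, minus strand). It was at 37.7, 34.4 and 41.8 TPM at 0.2 mM and between 11.4 and 13.7 TPM (median 12.9) at 0.8 mM. Of the members it had the largest fold difference, 2.98-fold between means of 38.0 ± 3.68 and 12.7 ± 0.942 TPM. Its log2 fold change was -1.50 ± 0.09 (SE, limma adjusted p = 7.70e-07), and 0.607% of all genes tested had a lower one. Its values at 0.8 mM were also the least spread of the members, with a coefficient of variation of 7.39%.

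The other mitochondrial folate genes were low and did not pass. Mthfd1l, whose product releases formate (chromosome 10, 3973118 to 4167081, plus strand), was at 2.36, 2.64 and 2.15 TPM at 0.2 mM and from 1.46 to 2.25 TPM (median 1.82) at 0.8 mM. The groups overlapped, with a log2 fold change of -0.24 (95% interval -0.53 to 0.06, limma adjusted p = 0.224). Aldh1l2, which oxidises the one-carbon unit to carbon dioxide (chromosome 10, 83487450 to 83534140, minus strand), was at 1.72, 1.86 and 2.52 TPM at 0.2 mM. At 0.8 mM its median was 1.46 TPM, with 3.06 TPM in replicate 1, the highest of all 9 libraries, and 1.27 TPM at the lowest. Its log2 fold change was -0.18 (95% interval -0.62 to 0.26, limma adjusted p = 0.553). It was -0.31 without 0.8 mM replicate 1 (adjusted p = 0.159) and -0.07 without 0.2 mM replicate 3 (adjusted p = 0.865). Aldh1l2 shares 1056 exonic bases, 14.1% of its exon length, with the opposite-strand gene D10Wsu102e, which was at 0.0886 ± 0.0214 and 0.0604 ± 0.00536 TPM.

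Mthfd1, the cytosolic enzyme with 3 folate activities (chromosome 12, 76255298 to 76319803, plus strand), varied widely within groups. It was at 3.39, 1.35 and 2.45 TPM at 0.2 mM and from 1.51 to 4.35 TPM (median 1.94) at 0.8 mM, with coefficients of variation of 42.6% and 45.0%. The groups overlapped, with means of 2.40 ± 1.02 and 2.33 ± 1.05 TPM and a log2 fold change of -0.03 (95% interval -0.61 to 0.54, limma adjusted p = 0.939). That interval also holds changes as large as that of Slc6a9, so unequal behaviour of the 2 genes cannot be read from these calls.

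Slc6a9 (chromosome 4, 117834506 to 117875198, plus strand) was at 4.62, 5.51 and 6.81 TPM at 0.2 mM and from 2.59 to 4.28 TPM (median 3.57) at 0.8 mM. The lowest library at 0.2 mM and the highest at 0.8 mM were close, without overlap. The means were 5.65 ± 1.10 and 3.53 ± 0.630 TPM, and on the log2 scale the change was -0.55 ± 0.16 (SE, limma adjusted p = 0.0232). This call was lost without 0.2 mM replicate 2 (adjusted p = 0.0662), without 0.2 mM replicate 3 (0.11) and with no filter (0.0505). Slc6a9 shares 1429 exonic bases, 27.8% of its exon length, with opposite-strand Ccdc24, which was at 0.230 ± 0.203 and 0.181 ± 0.210 TPM. Another 46 bases, 0.895%, are shared with opposite-strand B4galt2, which was at 3.82 ± 0.672 and 4.57 ± 0.805 TPM. Slc6a5, which encodes the other dedicated glycine transporter, GLYT2, was listed at 0 in all 9 libraries.

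The order of the mean levels differed between the groups, though the genes that changed places had overlapping ranges at 0.2 mM. At 0.2 mM Phgdh was highest, with ranges that overlapped those of Psph, and Mthfd2, Shmt2 and Psat1 followed at 36.6 to 38.0 TPM on average with overlapping ranges. At 0.8 mM the same 5 genes ran from Psph at 34.0 TPM and Phgdh at 29.4 TPM, which overlapped, to Psat1 at 22.7, Shmt2 at 16.4 and Mthfd2 at 12.7 TPM, each without overlap with the next. Slc6a9, Mthfd1, Mthfd1l and Aldh1l2 came next in both groups, and Shmt1 was last. Within the 0.2 mM group, 5 of the 6 members that fell were highest in replicate 3 and 1, Psph, in replicate 1, while 36.7% of all genes tested were highest in replicate 3. That library also had the lowest share of ribosomal RNA genes of its group, 20.05% of TPM. Whether this share bears on the order within the group was not tested. With those genes left out of the TPM the same number of members, 6, fell between the groups, which says nothing of that order.

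Ratios between 2 members in the same library were compared for 8 pairs, since a ratio of TPM does not move with the scaling of a library. The tests used ratios of TPM + 1, for which this holds less well where a gene is near 1 TPM. The Phgdh to Psat1 ratio of TPM was 2.11, 2.32 and 2.32 at 0.2 mM and 1.10 to 1.44 (median 1.31) at 0.8 mM, so Phgdh fell by more than Psat1. On the log2(TPM + 1) scale that ratio differed by -0.79 (0.8 minus 0.2 mM, two-sided exact permutation p = 0.0238, adjusted over the 8 pairs 0.0381). With 3 against 6 libraries, 0.0238 is the smallest p this design can give here. Mthfd2 fell by more than Shmt2, with a TPM ratio of 1.18, 0.926 and 0.956 at 0.2 mM and 0.685 to 0.862 at 0.8 mM (log2 difference -0.36, exact permutation p = 0.0238, adjusted 0.0381).

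On the log2(TPM + 1) scale Mthfd2 and Shmt2 also differed from low members of their own step or compartment. The log2 ratio of Mthfd2 to Mthfd1l went from 3.53 ± 0.24 to 2.26 ± 0.19, that of Mthfd2 to Mthfd1 from 3.56 ± 0.39 to 2.09 ± 0.36, and that of Shmt2 to Shmt1 from 4.54 ± 0.37 to 3.29 ± 0.40 (each exact permutation p = 0.0238, adjusted 0.0381). The last of these rests on the pseudocount of 1. The plain TPM ratio of Shmt2 to Shmt1 overlapped, at 44.8, 45.9 and 100.3 at 0.2 mM and from 12.35 to 87.95 (median 19.2, highest in replicate 2) at 0.8 mM, and with a pseudocount of 0.1 the adjusted p was 0.0952. All 5 ratio calls were lost without any 1 library. The adjusted p was 0.0571 without one at 0.8 mM, where each of the 5 pairs kept the smallest p those libraries can give. It was 0.0952 or 0.114 without one at 0.2 mM, where 2 against 6 libraries cannot reach 0.05. These losses thus follow from the number of libraries left. Phgdh and Mthfd2, from different arms of the pathway, had overlapping ratios, 2.02 to 2.28 at 0.2 mM and 1.94 to 2.48 at 0.8 mM (log2 difference 0.04, exact permutation p = 0.667, adjusted 0.667). The ratios with Psph did not pass, at a log2 difference of -0.53 for Phgdh to Psph (exact permutation p = 0.0714, adjusted 0.0952) and 0.26 for Psat1 to Psph (p = 0.238, adjusted 0.272), with overlap in both. Both moved by single libraries at 0.2 mM. Phgdh to Psph was -0.72 without replicate 1 and -0.29 without replicate 2, and Psat1 to Psph was 0.11 without replicate 1 and 0.48 without replicate 2.

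**Figure D3:**
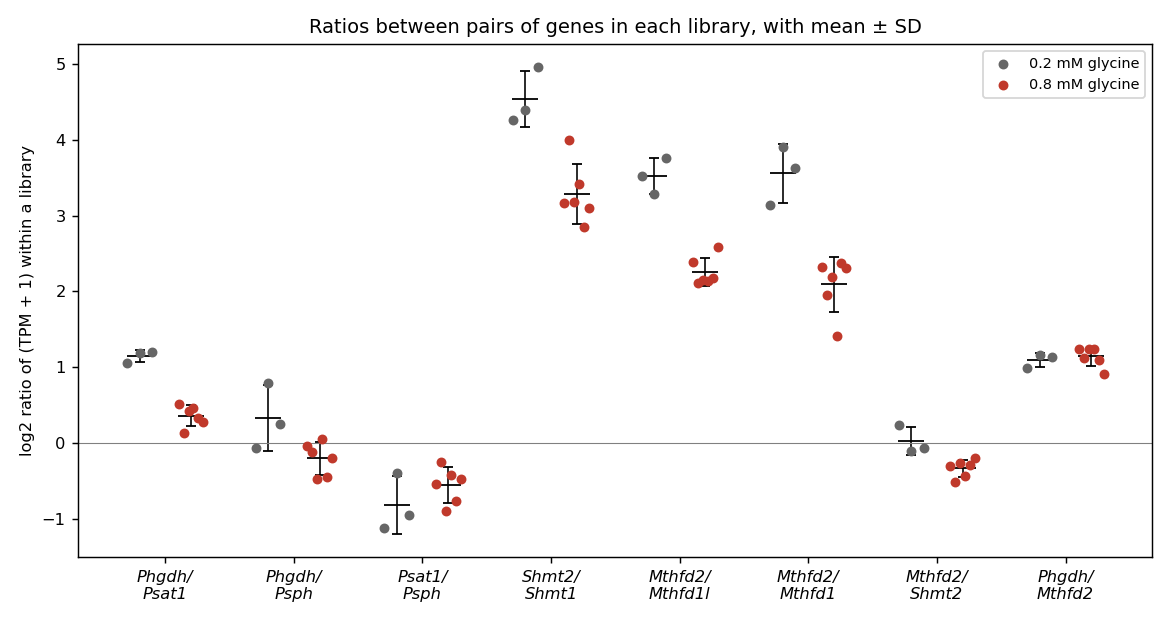
Log2 ratio of (TPM + 1) between 2 genes within each library, for 8 pairs, grey for 0.2 mM (n = 3) and red for 0.8 mM glycine (n = 6), with mean ± SD as black bars. The groups separate for Phgdh/Psat1, Shmt2/Shmt1, Mthfd2/Mthfd1l, Mthfd2/Mthfd1 and Mthfd2/Shmt2, and overlap for both pairs with Psph and for Phgdh/Mthfd2.

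The genes with profiles most like that of Phgdh were sought over the 9 libraries among 4463 genes that were tested, were no member and had a mean of at least 5 TPM. Likeness was the root mean square difference between log2(TPM + 1) profiles centred on their own mean. The 5 nearest were Asns, asparagine synthetase (0.0794), the unnamed transcript RP23-234K24.8 (0.0862), Sars, the cytosolic seryl-tRNA synthetase (0.105), Slfn2, a schlafen family gene (0.111), and Atf4 (0.117). Among the members Mthfd2 was nearest to Phgdh at 0.109, followed by Shmt2 at 0.183, Psph at 0.36 and Psat1 at 0.389. Asns was at 62.0, 68.0 and 72.6 TPM at 0.2 mM and 19.3 to 24.7 TPM at 0.8 mM, below Phgdh without overlap in both groups. Since the groups differ, this measure mostly compares sizes of change between them.

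Genes known to control serine synthesis also fell. Atf4 was at 151, 165 and 189 TPM at 0.2 mM and 61.2 to 75.2 TPM at 0.8 mM (log2 fold change -1.27 ± 0.09 SE, limma adjusted p = 1.99e-06). Cebpg, a C/EBP family partner of ATF4, fell from 11.1 ± 2.24 to 3.75 ± 1.40 TPM, and Nfe2l2, which encodes NRF2, from 46.6 ± 4.67 to 29.3 ± 2.17 TPM. Myc, named here after its values were seen, was the fourth that fell, from 10.99 ± 0.876 to 5.33 ± 1.47 TPM. Of this list of 6, 0 rose, 4 fell, Ehmt2 did not pass and Kdm4c was under the filter, with a median log2 fold change of -0.95 for the 5 tested, where 9.81% of all genes tested fell.

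The glycolytic enzymes on either side of 3-phosphoglycerate moved the opposite way to Phgdh. All 6 rose without overlap, where 16.7% of all genes tested rose and 17.6% were higher without overlap, with log2 fold changes between 0.62 and 2.78 and a median of 0.84. With the filter at a mean of 5 TPM, 1236 of 4470 genes rose, a larger share. Eno1, enolase, rose from 460 ± 59.5 to 1376 ± 86.1 TPM, Pgam2, the muscle phosphoglycerate mutase, from 6.10 ± 1.55 to 47.2 ± 5.08 TPM, and Gapdh from 2752 ± 304 to 4582 ± 226 TPM. Pgam2 is also a gene of differentiated muscle. Of the 7 genes listed as myoblast markers, 6 rose beside it (summed ranges above), with Myog and Des the largest parts of their sum. Pax7 did not pass (limma adjusted p = 0.13). The part of these marker genes in this result was not tested.

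Among 14 other carriers of serine and glycine, 0 rose, 1 fell, 6 did not pass and 7 were under the filter. A count of 1 in 7 tested is near the 9.81% of all genes tested that fell. The 1 that fell was Slc1a5, a neutral amino acid exchanger, from 13.5 ± 1.32 to 4.73 ± 0.694 TPM (log2 fold change -1.34 ± 0.12 SE, limma adjusted p = 1.63e-05). Slc38a2, a sodium-coupled carrier, was at 10.5 ± 0.908 and 8.84 ± 0.657 TPM (limma adjusted p = 0.116). Sfxn1, the mitochondrial serine carrier, stood at 6.199 ± 1.22 and 4.62 ± 0.338 TPM (limma adjusted p = 0.0625). This count depended on the scaling, with 4 that fell under median-ratio scaling or quantile normalization, 3 without ribosomal RNA genes, and 2 with no filter or without 0.2 mM replicate 2. Of the carriers 1 rose without ribosomal RNA genes or with no filter.

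Of 19 other folate genes, 0 rose, 2 fell, 13 did not pass and 4 were under the filter, with a median log2 fold change of -0.01 for the 15 tested. That count of 2 in 15 is near the 9.81% of all genes tested that fell. In 8 of 19 alternatives 1 of these genes rose, among them without 0.2 mM replicate 1 and without 0.8 mM replicate 4, 5 or 6, and 0 fell without 0.2 mM replicate 1 or 3. Aldh1l1, the cytosolic relative of Aldh1l2 and named after its values were seen, was under the filter at 0.0503 to 0.227 TPM at 0.2 mM and 0.348 to 1.09 TPM at 0.8 mM, without overlap, and rose with no filter (limma adjusted p = 0.0392). Folr2, a folate receptor, fell from 3.81 ± 0.0559 to 2.30 ± 0.495 TPM and Gart, a purine synthesis enzyme that uses formyl folate, from 2.61 ± 0.400 to 1.65 ± 0.248 TPM. Folr2 missed the threshold without any 1 of the 3 libraries at 0.2 mM (adjusted p up to 0.058) and Gart without any 1 of 5 libraries (up to 0.136, without 0.2 mM replicate 3). Mthfd2l, the adult-tissue relative of Mthfd2, was at 3.12, 2.78 and 4.68 TPM at 0.2 mM and 3.04 to 7.45 TPM at 0.8 mM, with overlap (limma adjusted p = 0.189). Tyms, thymidylate synthase, stood at 16.8 ± 3.76 and 14.6 ± 3.59 TPM (limma adjusted p = 0.527).

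Genes of glycine and threonine breakdown were mostly absent or low, with 6 of 10 under the filter, 1 that fell and 3 that did not pass, where 9.81% of all genes tested fell. Gldc, the glycine cleavage decarboxylase, was at no more than 0.28 TPM in any library, and Gcsh, the lipoyl carrier of that system, was at 8.04 ± 1.67 and 9.87 ± 1.35 TPM (limma adjusted p = 0.195). Dld, a subunit shared with other dehydrogenases, fell from 9.01 ± 0.403 to 7.20 ± 0.460 TPM, but missed the threshold without any 1 of 8 libraries (adjusted p up to 0.139, without 0.2 mM replicate 2).

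Of 14 genes listed for serine use or steps near it, 1 rose, 2 fell, 6 did not pass and 5 were under the filter. Of all genes tested, 16.7% rose and 9.81% fell. Cth, which makes cysteine from cystathionine, had the lowest log2 fold change of the 7 lists, from 15.5, 16.9 and 18.04 TPM at 0.2 mM to between 1.54 and 2.79 TPM at 0.8 mM (log2 fold change -2.46 ± 0.14 SE, limma adjusted p = 3.89e-07). Serinc2 rose from 3.08 ± 0.592 to 9.41 ± 1.25 TPM, while its relative Serinc3 fell from 6.38 ± 0.636 to 4.91 ± 0.256 TPM, a call lost without any 1 of 8 libraries (adjusted p up to 0.159, without 0.2 mM replicate 3). Of 7 genes that use glycine, 2 rose, 0 fell, 1 did not pass and 4 were under the filter, beside the same shares of all genes. Gatm, the creatine pathway enzyme that consumes glycine, rose from 8.83 ± 0.873 to 19.03 ± 1.96 TPM. Alas1, which starts heme synthesis, rose from 5.89 ± 1.27 to 10.03 ± 2.70 TPM, with overlap. The Alas1 call was lost in 14 of 19 alternatives, among them median-ratio scaling, quantile normalization and no filter. It was also lost without any 1 of 7 libraries (limma adjusted p up to 0.185, without 0.2 mM replicate 1).

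**Figure D4:**
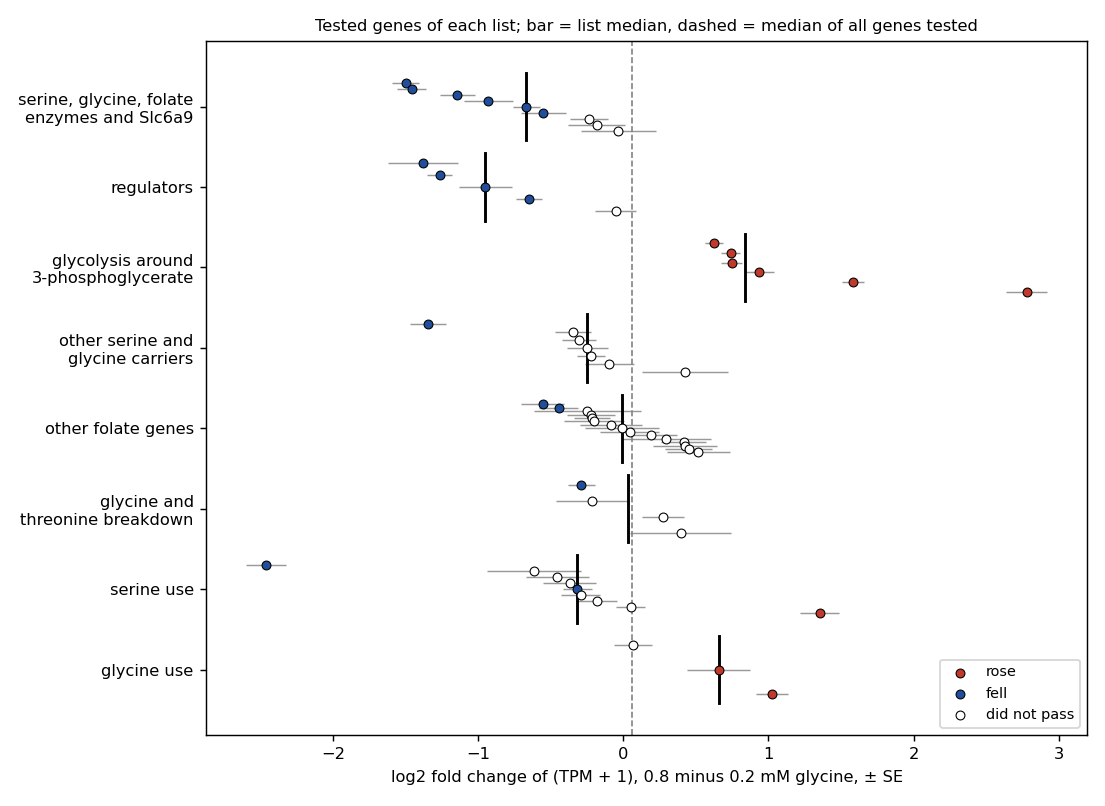
Log2 fold change of (TPM + 1), 0.8 minus 0.2 mM glycine, with SE, for each tested gene of the members and of 7 lists around them (vertical axis), in red where it rose, blue where it fell and white where it did not pass. Black bars mark list medians, from -0.95 for the regulators to 0.84 for glycolysis around 3-phosphoglycerate, and the dashed line the median of all genes tested at 0.06.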

How the data were processed

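RNA was sequenced from 9 libraries. HISAT2 2.0.5, StringTie 1.3.3, DESeq2 and the build mm10 are named in the submitters' processing notes, while their order, settings, annotation and strand use are not stated there. TPM was deposited by the authors for 53715 gene IDs per library, and 0 library pairs were identical. Depth is unknown.

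limma 3.58.1 in R 4.3.3 was run on log2(TPM + 1), two-sided, with lmFit and trended eBayes, over all 9 libraries, for genes with at least 1 TPM in at least 3. In 10 simulations with 10049 genes it recovered 35.7%, 74.6% and 94.8% of 670, 670 and 660 genes changed 1.5-, 2- and 4-fold. It called 0.0893% of 98490 unchanged ones. Far fewer genes changed there than the 26.6% called in the data, so these shares may not hold for this comparison. Ratios were tested by exact permutation (scipy 1.17.1). Positions and exons came from GENCODE M21 on GRCm38, which mm10 denotes, and copies were sought with BLAST 2.17.0. Figures used matplotlib 3.10.9.

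The members and lists were chosen with earlier results of these data known. All members were named, with up to 3 called genes of smallest p per list and the 5 genes nearest to Phgdh. Of the motifs, all but the C/EBP-ATF element were added after the data were seen. Other genes named in the text were also chosen after their values were seen.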

Additional observations from a re-analysis of the deposited data

Results flagged for a closer look

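Among 41 sets of 6 values at 0.8 mM tested for a value far from the rest (Dixon's criterion), 3 had one, and chance flags about 1 in 20. Mthfd1 was at 4.35 TPM in 0.8 mM replicate 4, Aldh1l2 at 3.06 TPM in 0.8 mM replicate 1 and Gatm at 15.2 TPM in 0.8 mM replicate 5, each far from the other 5 libraries. The 3 values lie in 3 different libraries.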

How the results depend on the processing

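Phgdh, Psat1, Psph, Shmt2 and Mthfd2 fell under all 19 alternatives (other pseudocounts, filters and scalings, no variance trend, each library left out, libraries 1 to 3 of each group). Slc6a9 fell in 13 of the 18 that gave it a value, and Mthfd1, Mthfd1l and Aldh1l2 passed in 0 of 18. Mthfd1 kept its direction in 15. The members that fell numbered 5 or 6 and those that rose 0. Library numbers are shared by the groups, and deviations of same-numbered libraries correlated at 0.0383, 0.00233 and 0.107. Of the 3 libraries at 0.2 mM, 2 correlated best with their own number. Whether the numbers pair the samples cannot be told from so few weak correlations. With libraries 1 to 3 and the number as a block, 625 genes fell (986 in all 9 libraries, and 748 in those 6 libraries with no block). In that block fit 5 members fell, and 6 genes of the 7 lists fell (10 in all 9 libraries). Dld and Gart, 2 of those 10, also missed the threshold in those 6 libraries with no block (limma adjusted p = 0.0656 and 0.1575). For Slc6a9 the block gave an adjusted p of 0.177, beside 0.114 in those libraries with no block. Genes that rose made up 63.1% of all calls, 52.6% after scaling by median ratios and 49.8% after quantile normalization. With a library left out, the genes of the 7 lists that fell numbered 6 (without 0.2 mM replicate 3) to 9. With a library left out, log2 ratio differences ranged from -0.84 to -0.75 for Phgdh/Psat1, -1.40 to -1.05 for Shmt2/Shmt1, -1.39 to -1.15 for Mthfd2/Mthfd1l, -1.68 to -1.29 for Mthfd2/Mthfd1 and -0.42 to -0.25 for Mthfd2/Shmt2, and, for pairs that did not pass, from -0.72 to -0.29 for Phgdh/Psph and 0.11 to 0.48 for Psat1/Psph. Each of the 5 that passed had an adjusted p of 0.0571 without any 1 library at 0.8 mM, from the smallest p those libraries can give. Without any 1 at 0.2 mM it was 0.0952 or 0.114, where 2 against 6 libraries cannot reach 0.05. The Shmt2/Shmt1 difference was -1.36 with a pseudocount of 0.1 (adjusted p = 0.0952). Depth, unknown here, limits genes near 1 TPM such as Shmt1.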

Other observations

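Several enzymes that would lead into or out of the pathway were listed at 0 TPM in all 9 libraries. These were Tdh, Dmgdh, Pipox and Agxt of glycine formation and breakdown from other sources, Ftcd of histidine and folate metabolism, Cbs, which makes cystathionine from serine, Sds, the serine dehydratase of liver, and Sptlc3. The carriers Slc6a5, Slc38a5 and Slc6a14 and the glycine conjugating enzymes Glyat and Baat were also at 0 throughout. Cth, the enzyme after Cbs in cysteine synthesis, was at 16.8 ± 1.27 TPM at 0.2 mM in the same libraries.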
